A study of Drosophila melanogaster with 2 samples.

Results

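The genes described here encode the general transcription machinery of Drosophila melanogaster and the Mediator complex, and the question was which of their promoters were bound by OdsH fused to GFP. OdsH is a homeodomain protein known for its part in the sterility of male hybrids between Drosophila species. Members were all protein-coding genes of the Ensembl BDGP6 annotation whose name starts with MED or Taf and a digit, with TfII, or with Polr2, which gave 62 of the 13968 protein-coding genes. They comprise 13 genes named for RNA polymerase II, 15 for TFIID, 9 for TFIIA, TFIIB, TFIIE, TFIIF and TFIIS, and 25 for Mediator. No measured value was used to choose them. Chromatin immunoprecipitation and sequencing with an antibody against GFP had been done on whole larvae of the third instar, taken as they wandered, in 2 biological replicates of 1 group. The larvae came from a stable transgenic line with GFP at the C terminus of OdsH. The labels name no promoter for the transgene and record no sex. With only 1 group, no other genotype, tissue or stage could be compared.

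Transcription of a protein-coding gene starts when general factors assemble with RNA polymerase II at its promoter. TFIID, made of the TATA-binding protein and its associated factors (TAFs), recognises the core promoter. TFIIA and TFIIB stabilise it and bring in the polymerase with TFIIF, TFIIE recruits TFIIH, which opens the DNA, and TFIIS later rescues arrested polymerase. Mediator, built of head, middle and tail modules around the scaffold subunit MED14, carries signals from transcription factors bound at enhancers to this assembly. These proteins are needed in nearly all cells, and their genes are in general broadly expressed.

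A gene is called bound here when a thresholded peak has its summit within 1 kb of one of the gene's annotated start sites. The thresholded list holds 7223 peaks, which passed the irreproducible discovery rate, and its lowest pooled signal is 109. Signal is the value the authors' peak caller gave each peak. Its scale is unknown, so values are compared only within a list. Longer lists of 30000 relaxed peaks, which include background, exist for the pooled data and for each replicate. The lists hold no read numbers, so depth is unknown, and in whole larvae binding in more cells cannot be told apart from stronger binding per cell. The larvae's tissues could not be checked against markers, since the files hold only peaks.

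The strongest bound sites of these genes were short stretches rich in A and T just upstream of a start site. The sequences below show the summit with 50 bases on each side of it for 8 members, chosen by signal with at most 2 per complex (Taf5, second in TFIID, was passed over because its sequence is not printed here), read 5′ to 3′ on the strand of the gene from the Release 6 reference (dm6). Capitals mark every match to a fixed set of motifs on either strand, which here were only the homeodomain core TAAT, the palindrome TAATTA that contains it on both strands, and the TATA box sequence TATAAA.
MED30, chr3L:654207-654307, minus strand: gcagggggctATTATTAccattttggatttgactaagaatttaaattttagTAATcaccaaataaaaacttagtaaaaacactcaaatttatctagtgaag
Polr2B, chr3R:14125637-14125737, plus strand: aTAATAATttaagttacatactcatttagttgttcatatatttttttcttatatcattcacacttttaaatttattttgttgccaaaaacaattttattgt
Taf4, chr3L:16113617-16113717, plus strand: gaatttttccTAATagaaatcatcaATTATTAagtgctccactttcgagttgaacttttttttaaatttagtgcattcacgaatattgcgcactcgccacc
MED27, chr3R:5654923-5655023, plus strand: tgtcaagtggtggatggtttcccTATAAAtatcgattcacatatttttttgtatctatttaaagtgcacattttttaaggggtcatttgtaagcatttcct
MED17, chr3R:18188883-18188983, plus strand: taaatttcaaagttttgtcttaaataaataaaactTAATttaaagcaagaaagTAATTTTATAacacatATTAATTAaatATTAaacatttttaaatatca
Polr2H, chr3L:21728741-21728841, plus strand: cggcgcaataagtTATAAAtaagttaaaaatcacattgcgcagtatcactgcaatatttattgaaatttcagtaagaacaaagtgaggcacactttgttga
Taf2, chr3L:9888749-9888849, minus strand: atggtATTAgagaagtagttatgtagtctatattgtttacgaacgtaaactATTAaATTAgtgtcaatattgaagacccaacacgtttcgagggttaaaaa
TfIIA-L, chr3R:27253218-27253318, plus strand: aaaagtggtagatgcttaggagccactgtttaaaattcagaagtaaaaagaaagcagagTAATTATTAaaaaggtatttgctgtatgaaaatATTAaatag
MED17 had the highest A and T content of the 8, at 87.1%, and 6 matches to TAAT. The lowest content, 66.3%, was that of Taf4, with 3 matches. MED27 and Polr2H held no TAAT and 1 TATA box sequence each.

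Bound members numbered 24 of 62 (38.7%, with an exact 95% interval of 26.6 to 51.9). Over all protein-coding genes the share was 28.0%, which lies within that interval. The intervals given for shares take in counting error alone. The bound genes were Polr2A, Polr2B, Polr2F, Polr2H and Polr2J, Taf2, Taf4, Taf5, Taf12 and Taf13, TfIIA-L, TfIIA-S, TfIIB and TfIIEbeta, and MED4, MED6, MED7, MED10, MED15, MED16, MED17, MED27, MED30 and MED31. They carried 24 different peaks. Within 250 bp of a start site the members' count hardly changed, at 23 of 62 (37.1%, exact interval 25.2 to 50.3), while the share of all coding genes was 19.4%, below that interval. MED15 was the member that this narrower distance left out. Whether the share of all coding genes fell inside the members' interval therefore depended on the distance.

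**Figure D1:**
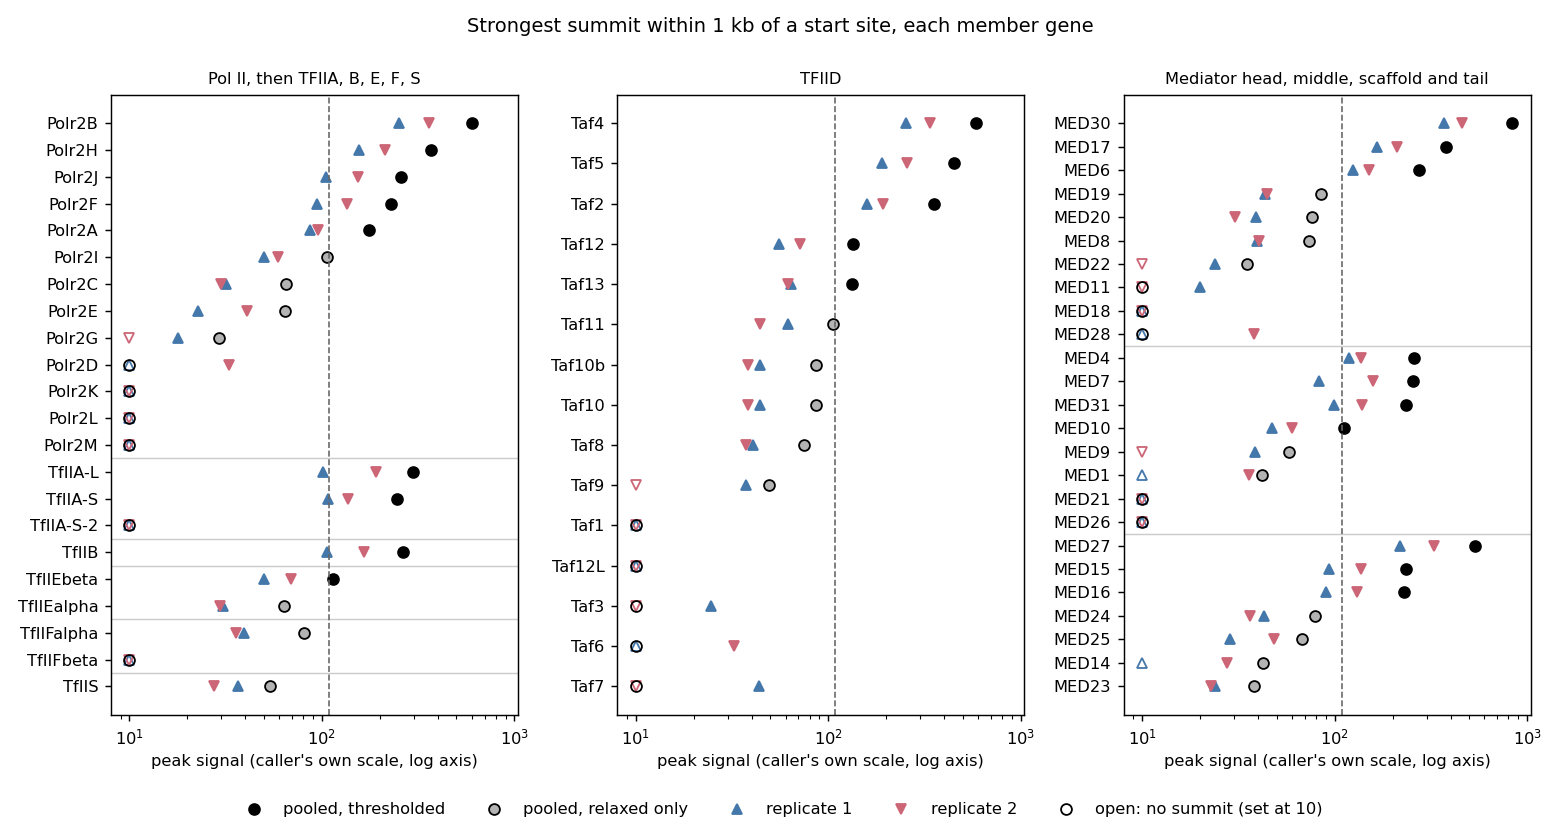
Peak signal (log axis, the caller's own scale) of the strongest summit within 1 kb of a start site, for each of the 62 genes by complex. Black circles are pooled thresholded peaks, grey circles pooled relaxed peaks, triangles the replicate lists, open symbols at 10 mark no summit, and the dashed line is the lowest thresholded signal (109). MED30 is highest at 835, and 10 genes have no summit in any list.

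Among the genes named for RNA polymerase II, 5 of 13 were bound (38.5%, exact interval 13.9 to 68.4), with pooled signals from 175 to 605. The strongest was Polr2B (FBgn0262955), which encodes the second-largest subunit and forms the catalytic cleft with Polr2A. Its peak spanned 3R 14125505 to 14125839, with a pooled signal of 605, 253 in replicate 1 and 361 in replicate 2, and its summit lay 104 bp upstream of the Polr2B start site and 139 bp from that of the divergent gene 140up. Polr2H (FBgn0037121), a subunit shared by the nuclear RNA polymerases, had a peak at 3L 21728742 to 21728915, with a pooled signal of 367 and replicate signals of 156 and 213. That summit lay 141 bp from the Polr2H start and 15 bp from the start of CG11247, inside the 5′ untranslated region of the latter. Polr2J (FBgn0032634), an assembly subunit, had a peak at 2L 17410277 to 17410720, with a pooled signal of 259 and replicate signals of 106 and 154. All 3 had a higher signal, and a higher rank, in replicate 2 than in replicate 1.

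Polr2F, another subunit shared by the nuclear polymerases, and Polr2A, which encodes the largest subunit with its C-terminal repeats, had pooled signals of 229 and 175. Polr2I, a subunit important for transcript fidelity, fell just short of the thresholded list, with a relaxed signal of 105.7 at position -148 bp (negative is upstream), and with 49.7 in replicate 1 and 59.2 in replicate 2. Polr2C, Polr2E and Polr2G had weaker relaxed summits, at 65.1, 64.4 and 29.3. Polr2D, which forms the stalk with Polr2G, had a summit in replicate 2 alone, with a signal of 32.9. The shared subunits Polr2K and Polr2L, and Polr2M, whose human counterpart associates with the polymerase rather than being a core subunit, had none. Core and shared subunits were therefore found on both sides of the threshold.

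TFIID genes were bound in 5 of 15 cases (33.3%, exact interval 11.8 to 61.6). Taf4 (FBgn0010280), a scaffold subunit with a histone fold, had a peak at 3L 16113581 to 16113773, with a pooled signal of 588, 253 in replicate 1 and 337 in replicate 2. Its summit lay in an intron of Taf4, 123 bp upstream of a start site inside the gene. Taf5 (FBgn0010356), a WD-repeat subunit, had a peak at 2R 10879831 to 10879964, with a pooled signal of 453 and replicate signals of 190 and 255. Taf2 (FBgn0011836), which contacts the initiator with Taf1, had a peak at 3L 9888577 to 9889020, with a pooled signal of 354 and replicate signals of 159.6 and 193, and a further thresholded summit of 281 at position -323 bp. The Taf2 summit was nearer to the start of CalpB, at 37 bp, than to that of Taf2, at 116 bp.

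Several TAFs pair through histone folds, and the pairs did not share one state. Taf4 and its partner Taf12 were both bound, Taf12 with a pooled signal of 135 and replicate signals of 55.5 and 71.4. Taf13 was bound at 133 (64.3 and 61.9 in the replicates), and its partner Taf11 lay just under the threshold at 106.1, with 62.0 in replicate 1 and 43.9 in replicate 2. Taf6 and Taf9 were not bound: Taf6 had only a replicate 2 summit of 32.3 and Taf9 a relaxed summit of 49.0. Taf8, Taf10 and Taf3, which meet in further pairs, were not bound either. The relaxed summit of 86.1 nearest to Taf10 is the same peak as that of its paralog Taf10b, since the 2 genes start 45 bp apart on opposite strands, and Taf8 had 74.5. Taf3 and Taf7 had a summit in replicate 1 alone, at 24.5 and 43.9. Taf1, the largest subunit, and Taf12L, a paralog of Taf12, had no summit in any list.

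The general factors beside TFIID were bound in 4 of 9 cases. TFIIA has 3 genes, of which the large subunit gene TfIIA-L (FBgn0011289) and the small subunit gene TfIIA-S (FBgn0013347) were bound. The TfIIA-L peak lay at 3R 27253046 to 27253489 in an intron of the gene, 162 bp upstream of an internal start site, with a pooled signal of 297 and replicate signals of 102 and 191. The TfIIA-S peak, at 3R 23890871 to 23891314, had 246, with 108 and 137 in the replicates, and its summit was 33 bp upstream. TfIIA-S-2, a further small subunit gene, had no summit in any list.

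TfIIB (FBgn0004915), which bridges TFIID and the polymerase, had a peak at 2L 10430845 to 10431288, with a pooled signal of 264 and replicate signals of 106 and 165. Its summit was 271 bp upstream, and a weaker thresholded summit of 117 lay 65 bp upstream. Of the TFIIE genes, TfIIEbeta (FBgn0015829) was barely bound at 3L 4286732 to 4287175, with a signal of 114 (50.1 and 69.3 in the replicates), and TfIIEalpha had a relaxed summit of 63.4. Neither TFIIF gene was bound: TfIIFalpha had a relaxed summit of 80.7 and TfIIFbeta none. The gene of TFIIS had a relaxed summit of 53.5 at position -838 bp, where negative positions are upstream.

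Mediator genes were bound in 10 of 25 cases (40.0%, exact interval 21.1 to 61.3), spread over the modules: 3 of 10 in the head, 4 of 8 in the middle and 3 of 7 in the tail with the scaffold. Modules were assigned from general knowledge of the complex, and a few subunits, such as MED26, MED27 and MED30, are placed differently by different sources. MED30 (FBgn0035149), a head subunit of metazoans, had the strongest peak of all 62 genes, at 3L 654063 to 654408. Its signal was 835 in the pooled list, where it ranked 255, and 371 and 460.3 in the replicates. The summit lay 168 bp upstream of MED30 and 106 bp from the start of the divergent gene Rev1. MED17 (FBgn0038578), the central head subunit, had a peak at 3R 18188711 to 18189154 with 378, and 165 and 211 in the replicates. MED6 (FBgn0024330), also of the head, had 2 thresholded summits, the stronger at 3R 9768238 to 9768681 with 274 (124 and 151 in the replicates) and the other with 224. MED6 has 5 annotated start sites. The stronger was the only one of the 24 leading summits downstream of its nearest start site, 42 bp from one inside the gene. The other head genes ranged from relaxed summits of 85.1 at MED19, 76.1 at MED20, 73.8 at MED8 and 35.2 at MED22 to none at MED18; MED11 and MED28 had a summit in 1 replicate each.

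The bound genes of the middle module had signals of 112 to 260. MED4 (FBgn0035754) had 260 at 3L 7250488 to 7250931 (119 and 137 in the replicates), MED7 (FBgn0051390) had 256 at 3R 10760879 to 10761322 (83.2 and 158), and MED31 (FBgn0037262) had 236 at 3R 4641598 to 4642041 (98.8 and 139). MED10 was the weakest bound member, at 112 (47.0 and 60.2). MED9 and MED1 had relaxed summits of 57.6 and 42.1, and MED21 and MED26 had none. In the tail, which many activators contact, MED27 (FBgn0037359) had 536 at 3R 5654865 to 5655166 (219 and 328), MED15 (FBgn0027592) had 235 at 2L 472178 to 472621 (93.9 and 137) and MED16 (FBgn0034707) had 229 at 2R 22182841 to 22183284 (90.0 and 131). The MED15 summit was 613 bp from its own start and 200 bp from that of CG4297, the farthest of the 24. MED14, MED23, MED24 and MED25 had relaxed summits between 37.9 and 78.9. Members just inside the threshold were thus MED10 and TfIIEbeta, and those just outside Taf11 and Polr2I.

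**Figure D2:**
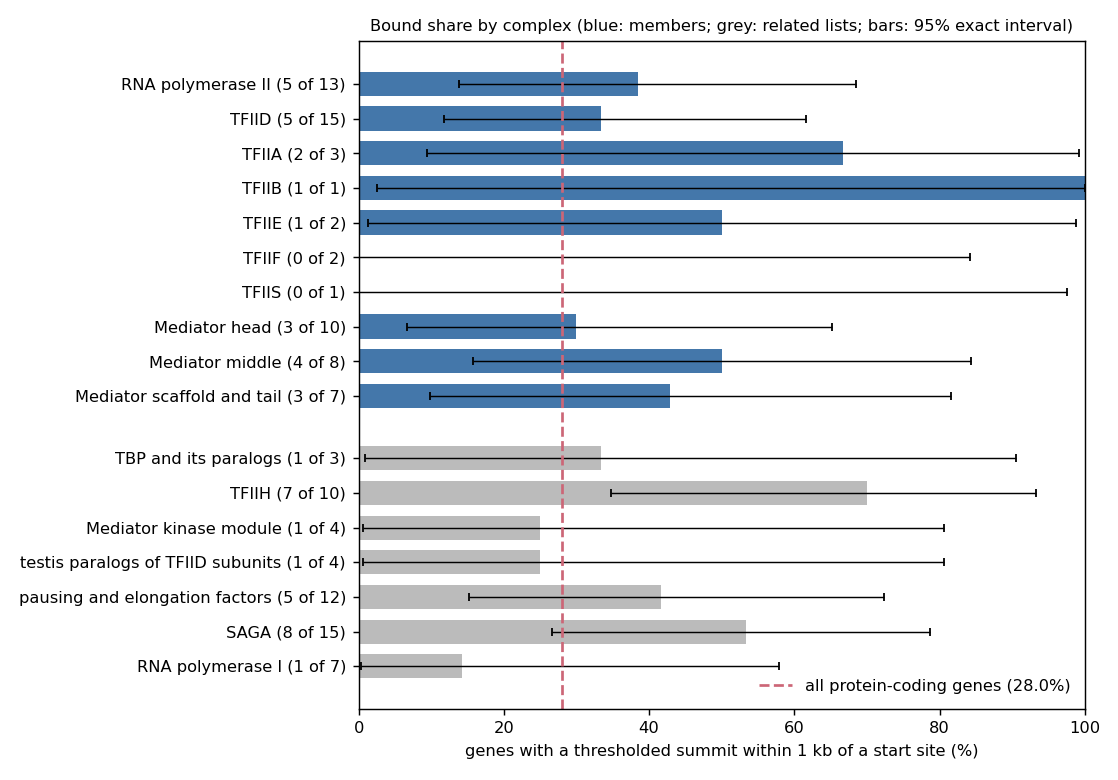
Percentage of genes with a thresholded summit within 1 kb of a start site, by complex (blue) and for related lists outside the name rule (grey), with exact 95% intervals. The dashed line is the share of all protein-coding genes, 28.0%, which lies inside the interval of every member complex and below that of TFIIH (34.8 to 93.3).

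Relaxed peaks lay near more of the members. A pooled relaxed summit was found within 1 kb of 46 of the 62 genes (74.2%, exact interval 61.5 to 84.5), against 57.0% of all coding genes. The replicate lists gave 47 genes in replicate 1 (75.8%, against 58.1%) and 45 in replicate 2 (72.6%, against 57.1%). In 40 genes (64.5%, exact interval 51.3 to 76.3) both replicates had one, against 51.9%. The summits of the 2 replicates need not be the same site: at MED23 they lay at -237 and 151 bp. Members with no summit in any of the 4 lists numbered 10 (16.1%, exact interval 8.02 to 27.7), against 36.2%. They were Polr2K, Polr2L, Polr2M, Taf1, Taf12L, TfIIA-S-2, TfIIFbeta, MED18, MED21 and MED26. The 22 members with a relaxed but no thresholded summit had a median signal of 66.5, close to the 59.9 of all coding genes of that kind, and the remaining 6 had a summit in 1 replicate list alone.

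The median of their strongest peaks was 259 (quartiles 229 and 370.1), against 213 (quartiles 147 and 360) over the 3910 bound coding genes, and 19 of 24 lay above that wider median. Of the 24, 5 (20.8%) ranked in the first 1000 peaks, close to the 19.1% of bound coding genes. All 24 had a partner within 200 bp in both replicate lists, as had 2742 of the 2760 peaks of all bound coding genes. Ranks were within the first 7223 in both lists for 22 of the 24, and for 84.5% of the peaks of all bound coding genes. MED10 and TfIIEbeta ranked below that in replicate 1. Signal was higher in replicate 2 at 23 of the 24 peaks, the exception being Taf13, while 77.8% of all thresholded peaks were higher there. The median log2 ratio of replicate 2 to replicate 1 was 0.44 at the members (SD over peaks 0.21). It was 0.28 at the peaks of all bound coding genes and 0.26 over all thresholded peaks (SD 0.45). Replicate signal is that of the strongest relaxed peak within 200 bp, so a weak summit beside a strong one can take the latter's value. Of the members, MED7 and TfIIA-L had the largest ratios, at 0.93 and 0.91. Spearman's rho between the replicates over the 24 peaks was 0.909, which describes peaks of 2 libraries that were themselves selected on agreement between them.

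**Figure D3:**
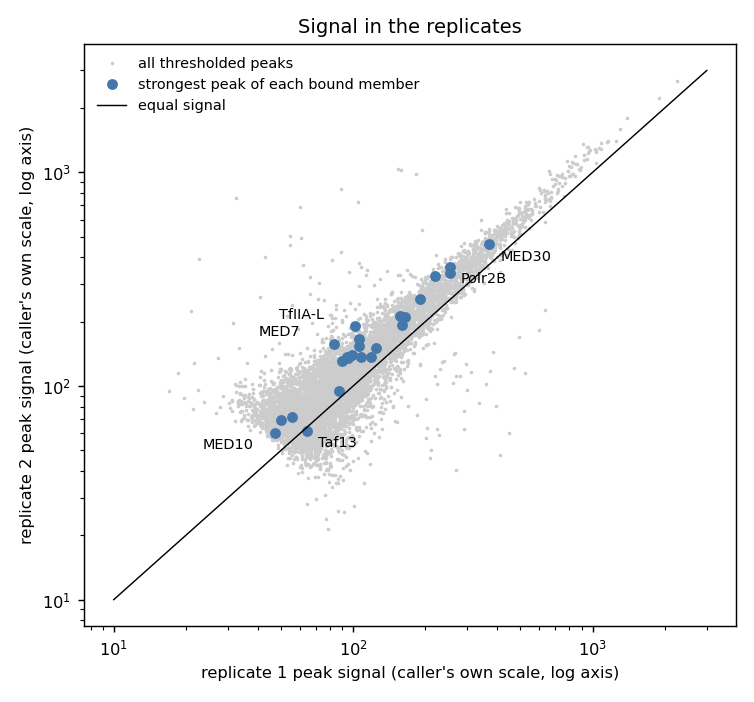
Signal in replicate 1 and replicate 2 (log axes, the caller's own scale) of all thresholded peaks with a partner in both (grey) and of the strongest peak of each bound member (blue), with the line of equal signal. All members but Taf13 lie above the line, from MED10 at the low end to MED30 at the high end.

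Summits at these genes were tightly placed upstream of the start site. They are set here beside those of all bound coding genes, whether or not these have a divergent neighbour. The strongest summit of 23 of the 24 bound members was upstream (95.8%), against 78.9% of bound coding genes, and 22 lay within 200 bp of the start (91.7%), against 54.3%. The median position was 131 bp upstream (-131 bp, quartiles -167 and -73.5), and that of all bound coding genes was nearly the same, -133 bp, with wider quartiles of -265 and -27.3. Most of the 24 were in intergenic sequence (15), with 5 in a 5′ untranslated region, of which MED6's own was 1 and the others were those of a neighbouring gene. A further 2 were in introns (Taf4 and TfIIA-L) and 2 in exons of antisense RNA genes (at Polr2A and MED4). None lay in a coding exon, and among the 2760 peaks of all bound coding genes 0.978% did. Introns held 30.0% of those peaks and intergenic sequence 47.3%, with 18.4% in 5′ untranslated regions and 2.21% in non-coding exons.

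**Figure D4:**
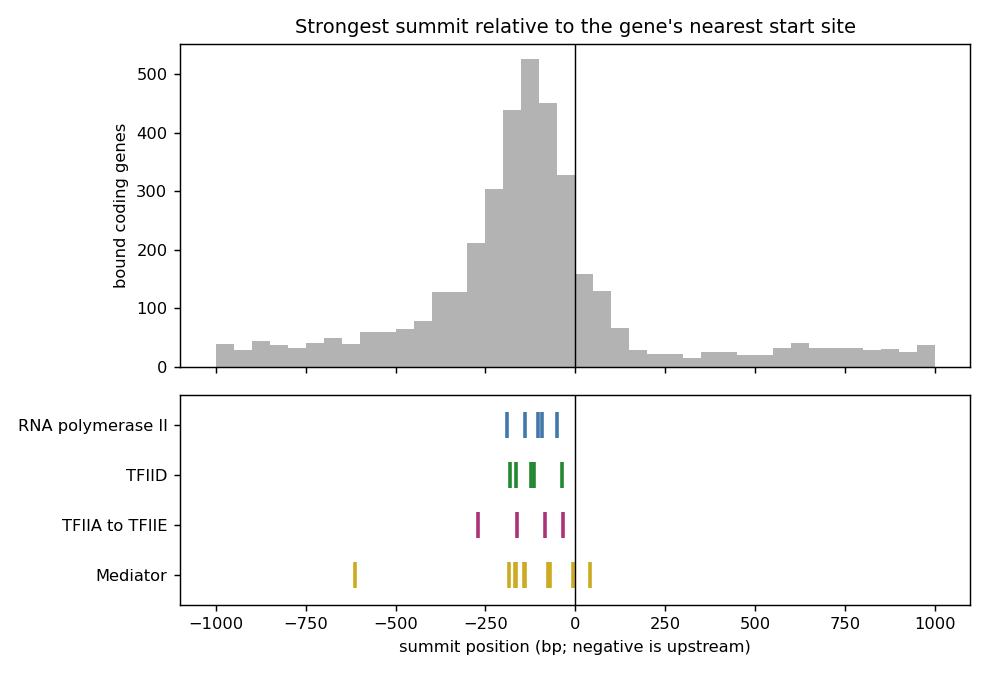
Position of the strongest thresholded summit relative to the nearest start site of the gene (bp, negative upstream), as a histogram of the 3910 bound coding genes in bins of 50 bp (top) and as single marks for the 24 bound members by complex (bottom). Of the members, 22 lie within 200 bp of the start; MED15 stands apart at -613 bp.

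Many of these genes start back to back with another coding gene. Not every leading summit at such a pair lay between the 2 starts. Those at Polr2H, Taf2, Taf13 and MED31 lay in the neighbour's 5′ untranslated region, and that at Taf4 in its own intron. A head-to-head neighbour, meaning another coding gene on the opposite strand that starts at most 1 kb upstream, was present for 44 of the 62 members (71.0%) and for 36.2% of coding genes. Among members with such a neighbour 20 of 44 were bound (45.5%, exact interval 30.4 to 61.2), and among all coding genes with one 45.9% were. Without one, 4 of 18 members were bound (22.2%, exact interval 6.41 to 47.6), namely Polr2F, TfIIA-S, TfIIEbeta and MED4, and 17.9% of coding genes. Compared in this way the members' shares were close to those of other genes, within the counting error. Within 250 bp the shares were 43.2% of the 44 (exact interval 28.3 to 59.0) against 34.1%, and 22.2% of the 18 against 11.1%, again with the wider share inside each interval. This split was chosen after the data had been examined. The shares of genes with a relaxed summit, or with none in any list, were not split in this way.

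**Figure D5:**
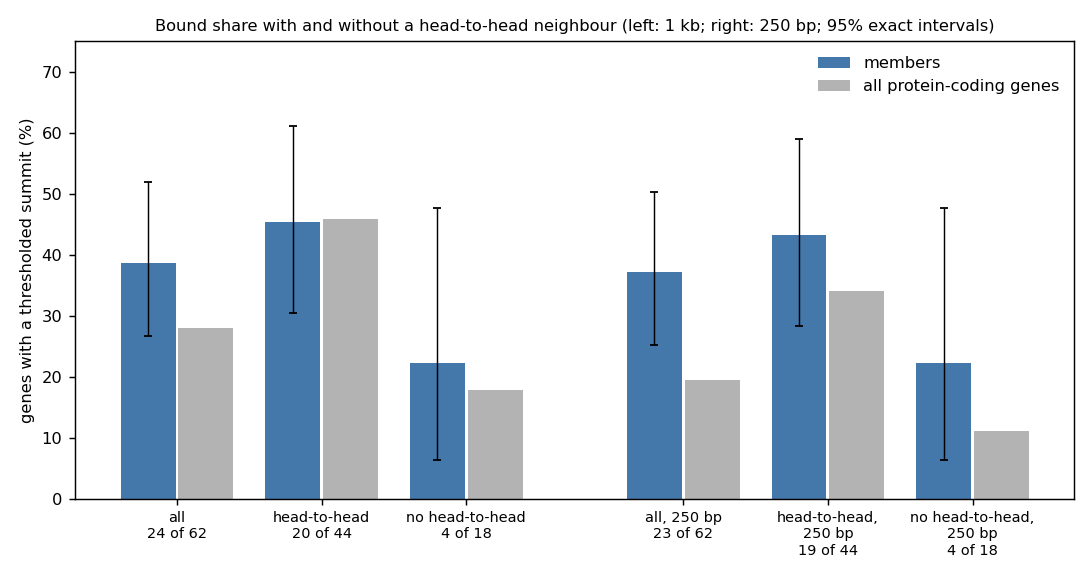
Percentage of genes with a thresholded summit for the members (blue, exact 95% intervals) and all protein-coding genes (grey), for all genes and for those with or without a head-to-head coding neighbour, at 1 kb (left) and 250 bp (right). At 1 kb the members with such a neighbour stand at 45.5% and all such genes at 45.9%.

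A summit near 2 starts counts for both genes, and at 12 of the 24 bound members the leading summit was nearer to the start of another coding gene (the own start was nearest at the other 12, and at 70.8% of bound coding genes). The neighbours nearest to these summits include Rev1 at MED30, elm at MED27, Pex6 at Taf5, CalpB at Taf2, Ho at Taf12, nesd at Taf13 and pll at TfIIA-L. For Taf12 the summit was 15 bp from the Ho start and 38 bp from its own, and for MED31 it was 18 bp from CG9775 and 143 bp from its own. Which of the 2 genes such a site serves was not tested.

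By arm, bound members were 1 of 6 on X, where 25.5% of coding genes were bound, 4 of 11 on 2L (28.0%), 2 of 7 on 2R (27.7%), 7 of 15 on 3L (28.7%) and 10 of 21 on 3R (29.9%). Neither member on chromosome 4, MED26 or Taf3, was bound, where 8.75% of coding genes were. Members were short genes, with a median length of 1252 bp against 2164 bp for all coding genes. Bound members had a median of 1321 bp and unbound ones 1154 bp, while that of all bound coding genes was 3282 bp. The median number of start sites was 1 in members and in all coding genes.

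Around the members' summits the motifs searched occurred in shares that did not differ from those at other bound promoters beyond the counting intervals. The search covered both strands over 50 bases on each side of the summit. No unbound sequence was searched, so whether the matches exceed those given by base content alone was not tested. TAAT was found at 19 of 24 (79.2%, exact interval 57.8 to 92.9) and at 74.5% of the 2760 peaks of bound coding genes, and the palindrome TAATTA, whose matches also count as TAAT, at 2 (8.33%) and 10.1%. TATAAA was found at 6 of 24 (exact interval 9.77% to 46.7%) and at 21.2%. The other fixed motifs were rare or missing: GAGAG occurred at 2 (8.33%) against 10.5%, and the DREF site TATCGATA, motif 1 GGTCACAC and the E-box CAGCTG at 0 of 24, which allows up to 14.2%, against 2.43%, 1.09% and 4.93%. Mean A and T content was 69.4% at the members, 65.2% at the peaks of bound coding genes and 65.6% at all thresholded peaks. Polr2A's summit was the only one of RNA polymerase II with neither TAAT nor TATAAA, and those of MED6 and MED10 held none of the 7 motifs.

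Genes that work with these proteins but fall outside the name rule were counted from lists of known subunits and factors. Of 10 TFIIH genes 7 were bound (70.0%, exact interval 34.8 to 93.3), the strongest being Ssl1, a core subunit, with a pooled signal of 2130 (922.8 and 1207 in the replicates) at 3L 22878694 to 22879105. That summit was 184 bp from the Ssl1 start and 79 bp from that of Chro. The others bound were mrn, the fly's Tfb2, at 353, and Tfb4 (221), Xpd (205.5), Tfb5 (200.1), CycH (155) and Cdk7 (142); hay, Tfb1 and Mat1 were not. TBP itself was not bound, with a relaxed summit of 48.2, nor was Trf, at 27.3, while the TBP paralog Trf2 was, at 159.7. Of the Mediator kinase module only skd was bound (175), and kto, Cdk8 and CycC were not. The skd summit lay 448 bp upstream of its own start and 33 bp from that of Pdss2. Among testis paralogs of TFIID subunits can was bound (204), 692 bp upstream, and nht, mia and sa were not.

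Pausing and elongation factor genes were bound in 5 of 12 cases (41.7%), namely the NELF subunit genes Nelf-A, NELF-B, Nelf-E and TH1 and the gene of the elongation factor spt4, with signals of 147 to 486. The strongest, at Nelf-E, lay 53 bp from the start of RpL14 and 74 bp from that of Nelf-E. The Nelf-A summit was 843 bp downstream of its own start. Genes of SAGA, the acetyltransferase coactivator that shares subunits with TFIID, were bound in 8 of 15 cases (53.3%, exact interval 26.6 to 78.7), led by the acetyltransferase gene Gcn5 at 1220 (523 and 694 in the replicates). The Gcn5 summit lay 185 bp from the start of ver and 228 bp from that of Gcn5. At Sf3b5, also counted as bound, the summit lay 998 bp from its own start and 30 bp from that of Kcmf1. The Ada2b summit was 606 bp downstream of its nearest start. RNA polymerase I genes were bound in 1 of 7 cases (Polr1D, with the summit at -912 bp). Against 28.0% of all coding genes, only the TFIIH interval lay wholly above, and each of these lists is small. Of the TFIIH genes, 7 had a head-to-head neighbour and 6 of these were bound (exact interval 42.1% to 99.6%), an interval that holds the 45.9% of all such coding genes. Without one, 1 of 3 was bound, CycH. Whether open chromatin at promoters contributes to any of these shares was not tested; the control library was not analysed here.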

How the data were processed

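Peaks were read from the dm6 lists deposited by the authors: a list for each of the 2 replicates, a pooled list, and the pooled peaks thresholded on the irreproducible discovery rate, scored against a control library per the file listing. The peak signal in the deposited files is the value of the authors' caller on a scale not stated; the aligner and the peak caller remain not given in the sources used here. Lists in dm3 coordinates were not analysed here. Summits were set against the Ensembl release 115 annotation and the Release 6 sequence; every peak lay within its arm. Replicate signal at a pooled summit is that of the strongest relaxed peak within 200 bp. Members, related lists, motifs and the choice of named genes (all members, with full values for the 3 strongest of each complex and for complexes of 4 or fewer) were chosen with earlier results of these data known. With 1 group there was no test across samples, and lists are described beside all coding genes, with exact binomial 95% intervals. Older symbols matched mrn and Sf3b5, and Ell and Su(Tpl) are 1 gene; rye matched none. A further related list is not reported here. Alternatives were other distances, start sites, peak lists, each replicate alone and a motif window of 100 bases on each side of the summit. Planted summits tested the matching of summits to genes. Python 3.11.15, numpy 2.4.6, pandas 2.3.3, scipy 1.17.1 and matplotlib 3.10.9 were used.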

Additional observations from a re-analysis of the deposited data

How the results depend on the processing

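The share of members bound (38.7%) stayed within its exact interval with a window of 250 bp, 500 bp (37.1%) or 2 kb (45.2%), with peaks that cover the start site (32.3%), with the most upstream start site only (37.1%), with the 3611 strongest peaks (30.6%) and without either replicate (37.1% to 38.7%). The share of all coding genes lay below the interval of the members' own share at 250 bp (19.4%), at 500 bp (24.1%, interval from 25.2), with peaks that cover the start (16.7%, from 20.9), with the strongest peaks (16.2%, from 19.6) and with the relaxed list (57.0%, from 61.5). It lay inside at 1 kb, at 2 kb (34.0%), with the most upstream start (25.8%) and without either replicate (27.9%). The members' share moved to 21.0% (13 genes, exact interval 11.7 to 33.2) where the member's start had to be the nearest coding start. The share of all coding genes there, 19.8%, lay inside that interval. With the relaxed pooled list the members' share moved to 74.2%. The direction of both moves was fixed by construction, but their size was not. In the split added after the data had been examined, the members' share was 22.2% without a head-to-head neighbour, at 1 kb and at 250 bp. The median signal was 106 to 153 when a single replicate's list was used, on that list's own scale. With 500 bp, 2 kb, the most upstream start, the nearest coding start and the strongest peaks it stayed within its interval of 229 to 367. In these settings and without either replicate the median position stayed within -166 to -75 bp. Neither median was computed for the other settings. With the strongest 3611 peaks the members' median signal, 274, was below that of all coding genes, 325, where it was above in the full list. Without replicate 2, MED10 and TfIIEbeta were no longer bound and Taf11 was. No motif share moved beyond its interval with 100 bases on each side of the summit. No paired analysis was possible because there is 1 group. Depth is unknown, and counts of a few genes per complex limit each share.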

Other observations

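With a distance of 2 kb 4 more members had a thresholded summit: Taf10b (491) and Taf10 (353), whose summits both lay on the Taf10b side of their shared promoter, MED9 (340.1) and TfIIEalpha (319). The last 2 summits were 1098 and 1912 bp downstream of the member's start. MED20 starts 47 bp from the TBP paralog gene Trf on the opposite strand, and its relaxed summit of 76.1 was 987 bp downstream of that shared promoter.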
